A study of Mus musculus with 4 samples.

Results

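The 10 genes followed here encode secreted WNT and R-spondin proteins, and they were read in single cells of mouse bone and marrow. They were the 7 WNT ligands Wnt2, Wnt4, Wnt5a, Wnt5b, Wnt10b, Wnt11 and Wnt16 and the 3 R-spondins Rspo1, Rspo2 and Rspo3, chosen by symbol from the 32285 genes counted. The cells came from 1 young mouse (6 months) and 1 old mouse (24 months), both INK-ATTAC and both without treatment. INK-ATTAC mice carry a transgene in which a p16 promoter drives a caspase 8 that only a dimerizing drug activates. No drug was given here, so both mice carried the same cassette in its inactive state. Digests of marrow and bone from femur and tibia were depleted of blood lineage cells, stained with an oligonucleotide-tagged CD24 antibody and sorted for live CD45- cells. With 1 animal per age, a difference between the ages cannot be told apart from one between animals or libraries.

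WNT ligands are lipid-modified proteins that leave the cell with the carrier Wntless and act on Frizzled receptors of nearby cells. They signal either through β-catenin, with the co-receptors LRP5 and LRP6, or through receptors such as ROR2 and RYK. R-spondins are not WNTs. They bind LGR4, LGR5 or LGR6 together with the ligases ZNRF3 or RNF43 and so keep Frizzleds at the cell surface. In bone, β-catenin signalling favours bone formation, and secreted antagonists such as sclerostin, Dickkopf proteins, secreted Frizzled-related proteins and WIF1 restrain WNT signalling.

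A filter of at least 200 genes and at most 20% mitochondrial UMIs (unique molecular identifiers, each standing for 1 captured transcript) kept 10063 young and 5607 old cells, with medians of 6385 and 9711 UMIs. Cells were assigned to groups by the UMIs of marker genes, none of which was 1 of the 10 ligands, and each group name means a likeness to its markers. Of the kept cells, 73.8% (young) and 69.9% (old) joined 1 of 9 mesenchymal groups, while 15.9% and 15.5% joined no group of any kind. The young and the old mouse gave 3029 and 1867 Lepr-Adipoq stromal-like cells, 2508 and 1098 Pi16-Dpt fibroblast-like cells, 529 and 376 osteoblast-like cells, and 500 and 238 Tnn-Ostn osteolineage-like cells. They also gave 376 and 164 tendon-like cells, 275 and 61 fibrochondrocyte-like cells, and 54 and 66 pericyte- or smooth-muscle-like cells. These 7 groups were tested on UMIs summed per mouse and group, with the mouse as the replicate, so every p rests on 2 animals that also differ in age. Chondrocyte-like (88 and 15) and joint-lining-like cells (64 and 33) were too few in the old mouse for this test. Each group had 3 to 6 of its own markers and 0 of another list among its 10 genes of largest fold over the other groups. Cells were assigned by these same markers, so this is no test of the group names. Tnn-Ostn cells also held a median of 45 (young) and 56.5 (old) UMIs of osteoblast markers per cell. Of tendon markers they held 24 and 66.5, next to 93.5 and 101 of their own. Fibrochondrocyte-like cells held 94 and 141 UMIs of tendon markers, next to 78 and 78 of their own list. Among the tested groups, assignment was least certain for tendon-like cells, of which 47.1% (young) and 37.2% (old) led their runner-up list by less than 25% of its score. Col1a1, the main collagen of bone, stood at 7213 (young) and 14020 (old) UMIs per 1000000 in grouped mesenchymal cells and at 240 and 165 in blood cells. The libraries shared 19 cell barcodes among kept cells.

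All 10 ligands were detected in both mice. Over kept cells they ranged from 159 (Wnt2) to 3203 UMIs (Rspo3) in the young mouse and from 83 (Wnt2) to 3204 UMIs (Rspo3) in the old mouse. Grouped mesenchymal cells held between 66.7% (Rspo1) and 96.9% (Wnt2) of a ligand's UMIs in the young mouse and between 81.7% (Wnt16) and 96.4% (Wnt4) in the old mouse. Levels throughout are counts of a gene for each 1000000 UMIs of a group (CPM). In blood cells, which show what free RNA can give, every ligand stood at 2.41 CPM or less in the young mouse and at 2.14 or less in the old mouse. Mesenchymal levels below these background limits were read as background for every ligand. The limits are the blood levels of Wnt5a (young) and Rspo2 (old). Any other ligand stood lower in blood cells of that mouse, so the limit lies above its own blood level. Intervals are exact, at 95%, and hold counting error alone. Where a count is 0, the limit given is the level of 3 UMIs.

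**Figure D1:**
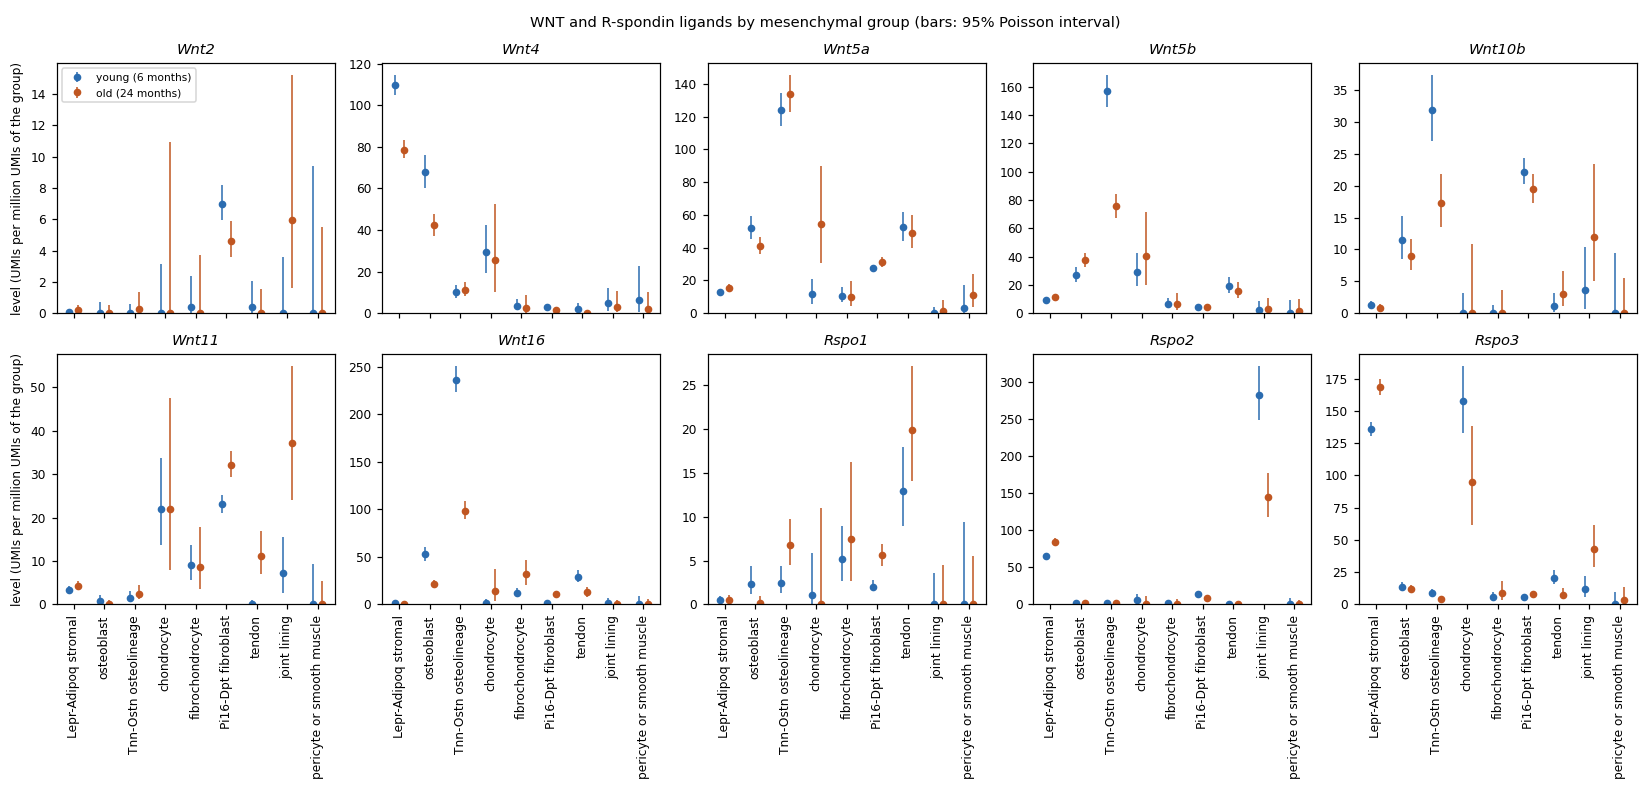
Level of each ligand (y axis, CPM) in 9 mesenchymal groups (x axis) of the young mouse (blue) and the old mouse (orange), with 95% Poisson intervals and, where the count is 0, a bar up to the level of 3 UMIs. Wnt4 was highest in Lepr-Adipoq stromal-like cells of both mice, Wnt5a, Wnt5b and Wnt16 in Tnn-Ostn cells, and Rspo2 in joint-lining-like cells.

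The first question was which mesenchymal cells carried each ligand. Of the 70 pairs of a ligand and a tested group, 23 differed from the mean of the other tested groups at an adjusted p under 0.05. Among the 7 tested groups, Wnt4, Rspo2 and Rspo3 were highest in Lepr-Adipoq stromal-like cells, Wnt5a, Wnt5b, Wnt10b and Wnt16 in Tnn-Ostn cells, Wnt2 and Wnt11 in Pi16-Dpt fibroblast-like cells, and Rspo1 in tendon-like cells. For 5 of the 10 ligands the highest group also differed from the next highest one. A fitted difference is given below only where no tested group stood at 0 in both mice, since it otherwise depends on the small count the fit adds. For such ligands the levels, the call and the comparison of the highest groups are given instead.

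Lepr-Adipoq stromal-like cells, the perivascular marrow cells that make Cxcl12 and Kitl, carried 1 WNT and 2 R-spondins at high level. Wnt4, a ligand that can act through either branch of the pathway, stood at 110 (young) and 78.6 (old) CPM in them. Among the tested groups osteoblast-like cells came next, with 67.8 and 42.4, and Tnn-Ostn cells followed with 10.2 and 11.3. Every other tested group stood at 6.27 or less in both mice, so the 2 leading groups lay apart from the rest. Against the mean of the other tested groups, the log2 difference of Wnt4 was 4.01 (SE 0.17, adjusted p = 8.48e-09) in Lepr-Adipoq cells and 3.42 (SE 0.20, adjusted p = 2.01e-07) in osteoblast-like cells. The gap between these 2 groups was 0.50 (SE 0.19, adjusted p = 0.0556), which missed the threshold and passed it under 5 of the other settings, while osteoblast-like cells exceeded Tnn-Ostn cells by 2.45 (SE 0.24, adjusted p = 5.00e-05).

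Rspo3 stood at 136 (young) and 168 (old) CPM in Lepr-Adipoq cells. No other tested group exceeded 20.6, the level of tendon-like cells in the young mouse, in which 1 cell held 29 of the 56 Rspo3 UMIs. The difference from the mean of the other groups was 4.20 (SE 0.21, adjusted p = 2.83e-08), and the difference from tendon-like cells, the next highest, was 3.21 (SE 0.34, adjusted p = 1.98e-05). Without that cell the young tendon-like level was 9.96, below that of osteoblast-like cells (13.6 and 11.97), from which Lepr-Adipoq cells differed by 3.28 (SE 0.31, adjusted p = 6.93e-06). Rspo2 stood at 65.4 and 84.9 in the same cells. Pi16-Dpt fibroblast-like cells came next with 14.5 and 8.27, lower by a log2 difference of 2.57 (SE 0.24, adjusted p = 7.39e-06). They in turn exceeded Tnn-Ostn cells (2.49 and 1.68) by 2.42 (SE 0.39, adjusted p = 0.001065). For Rspo2 the remaining tested groups stood at 2.39 or less, below the background limit of each mouse. Lepr-Adipoq cells held 60.4% (young) and 79.2% (old) of all Rspo2 UMIs and 79.1% and 85.9% of all Rspo3 UMIs. In the same cells Wnt5a was lower than the mean of the other groups, by 1.28 (SE 0.15, adjusted p = 3.24e-05), at 13.0 and 15.7 CPM. That call was lost with cells thinned to 2000 UMIs (adjusted p = 0.975) and with 9 groups in the fit (adjusted p = 0.247). In this group 4 of the 10 ligands passed the test, and of all 13523 genes tested 46.6% did. Against osteoblast-like, tendon-like and Pi16-Dpt cells the shares of all genes called were 40.2%, 37.2% and 45.1%.

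Tnn-Ostn osteolineage-like cells are named after tenascin N (Tnn) and osteocrin (Ostn), a pair of genes of periosteal bone-forming cells. Their marker list also held Postn and Aspn, and not every marker was needed. Cells of this group could therefore lack Tnn or Ostn. Wnt16, a ligand of bone-lining and cortical bone cells whose loss thins cortical bone in mice, stood at 237 (young, interval 223 to 251) and 98.9 (old, 89.6 to 109) CPM in them. Osteoblast-like cells came next with 52.7 and 21.3, and the other tested groups ranged from 0 to 32.2. Wnt16 was also among the 10 genes of largest fold in Tnn-Ostn cells. It was called higher in Tnn-Ostn cells (adjusted p = 0.000197) and in osteoblast-like cells (adjusted p = 0.0443) than in the mean of the other groups. Tnn-Ostn cells exceeded osteoblast-like cells by a log2 difference of 2.11 (SE 0.68), which missed the threshold with an adjusted p of 0.0593 and passed it under 5 of the other settings. The osteoblast call for Wnt16 was lost when 1 marker more was needed for a group (adjusted p = 0.0558). Under that setting Tnn-Ostn cells held 346 (young) and 40 (old) Wnt16 UMIs, in place of 1142 and 411. The Wnt16 levels were then 311 and 94.3 CPM.

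Wnt5b, a close relative of Wnt5a, stood at 157 (young) and 75.5 (old) CPM in Tnn-Ostn cells and at 27.0 and 37.4 in osteoblast-like cells. The next tested groups, tendon-like and Lepr-Adipoq cells, did not exceed 19.5. Tnn-Ostn cells lay above the mean of the other groups by 3.92 (SE 0.25, adjusted p = 1.31e-06) and above osteoblast-like cells by 1.69 (SE 0.30, adjusted p = 0.00253). Osteoblast-like cells were above the mean of the others by 1.95 (SE 0.32, adjusted p = 0.000794), and not beyond the threshold above tendon-like cells (difference 1.04, SE 0.38, adjusted p = 0.0645).

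Wnt5a, the main ligand of ROR2 and a WNT that acts mostly outside β-catenin, was found in every tested group. Tnn-Ostn cells held 124 (young) and 134 (old) CPM, tendon-like cells 52.5 and 48.8, osteoblast-like cells 51.8 and 41.2, and Pi16-Dpt cells 27.3 and 31.2. Tnn-Ostn cells were above the mean of the other groups by 2.63 (SE 0.11, adjusted p = 7.79e-08) and above tendon-like cells by 1.36 (SE 0.15, adjusted p = 0.000344). Tendon-like and osteoblast-like cells, the next 2 in order, differed by 0.0039 (SE 0.15). Both were above the mean of the others, by 1.04 (SE 0.14, adjusted p = 0.000475) and 1.03 (SE 0.13, adjusted p = 9.41e-05). Osteoblast-like cells exceeded Pi16-Dpt cells by 0.78 (SE 0.14, adjusted p = 0.000976), and Pi16-Dpt cells exceeded Lepr-Adipoq cells by 1.20 (SE 0.14, adjusted p = 2.81e-05).

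Wnt10b, a β-catenin ligand that raises bone mass when overexpressed, was highest in 3 of the tested groups. It stood at 31.9 (young) and 17.3 (old) in Tnn-Ostn cells, at 22.2 and 19.4 in Pi16-Dpt cells, and at 11.5 and 8.98 in osteoblast-like cells. Tnn-Ostn cells were the higher of the first 2 groups in the young mouse and the lower in the old mouse. The difference was 0.22 on the log2 scale (SE 0.24, adjusted p = 0.566). Pi16-Dpt cells exceeded osteoblast-like cells by 0.91 (SE 0.27, adjusted p = 0.0220), and osteoblast-like exceeded tendon-like cells by 2.55 (SE 0.49, adjusted p = 0.00411). All 3 groups were called higher than the mean of the others, with adjusted p-values of 2.52e-05, 1.14e-05 and 0.000729. Tendon-like cells stood at 1.10 and 3.05, on 3 and 6 UMIs, and fibrochondrocyte-like cells held 0 Wnt10b UMIs in both mice. In joint-lining-like cells, which were too few to test, it stood at 3.57 and 11.9, on 3 and 8 UMIs.

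Of the 10 ligands, 4 passed the test in Tnn-Ostn cells and 5 in osteoblast-like cells, where 18.0% and 29.6% of all genes did. Between Tnn-Ostn and osteoblast-like cells 16.1% of all genes were called, between Tnn-Ostn and tendon-like cells 7.65%, between Tnn-Ostn and Pi16-Dpt cells 25.9%, between osteoblast-like and Pi16-Dpt cells 38.2%, and between osteoblast-like and tendon-like cells 25.3%.

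The bases before the start of 4 ligands are shown because Wnt16, Wnt5b and Wnt10b were high together in Tnn-Ostn cells, with Wnt4, which was not, beside them. RefSeq (GRCm38.p6) gave such sequence for 7 of the 10 ligands. Each run is the 250 bases before the annotated start of a transcript on the gene's own strand, 5′ to 3′, and capitals mark matches on either strand to TGTGGT (RUNX), CTTTGA (TCF/LEF), CCAAT or GGGCGG (GC box), which may overlap one another.
Wnt16 (chr6:22287977-22288226, plus strand): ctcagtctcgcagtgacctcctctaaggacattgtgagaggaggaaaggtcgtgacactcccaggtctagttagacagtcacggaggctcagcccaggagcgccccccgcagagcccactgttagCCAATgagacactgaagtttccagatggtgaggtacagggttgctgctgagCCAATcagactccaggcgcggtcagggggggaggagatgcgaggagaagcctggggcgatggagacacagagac
Wnt5b (chr6:119544348-119544597, minus strand, the first of 3 starts): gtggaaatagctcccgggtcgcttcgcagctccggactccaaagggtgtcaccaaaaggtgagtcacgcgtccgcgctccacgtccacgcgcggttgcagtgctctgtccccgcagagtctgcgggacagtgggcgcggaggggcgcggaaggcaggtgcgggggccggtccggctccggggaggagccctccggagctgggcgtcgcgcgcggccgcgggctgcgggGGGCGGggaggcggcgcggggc
Wnt10b (chr15:98778151-98778400, minus strand): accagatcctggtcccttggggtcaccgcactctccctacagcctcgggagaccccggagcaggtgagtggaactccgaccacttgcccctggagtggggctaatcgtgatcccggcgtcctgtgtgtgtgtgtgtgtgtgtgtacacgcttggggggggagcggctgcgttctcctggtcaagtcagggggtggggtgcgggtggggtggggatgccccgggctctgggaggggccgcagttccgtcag
Wnt4 (chr4:137277385-137277634, plus strand): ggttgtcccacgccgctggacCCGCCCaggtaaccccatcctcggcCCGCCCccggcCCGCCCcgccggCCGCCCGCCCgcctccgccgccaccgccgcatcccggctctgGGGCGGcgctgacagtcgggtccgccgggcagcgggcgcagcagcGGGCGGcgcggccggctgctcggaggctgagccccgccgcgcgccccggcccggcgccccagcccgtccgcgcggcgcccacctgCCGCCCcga
The Wnt16 window held 2 CCAAT matches, 125 and 74 bases before the start, and 0 GC boxes, at a GC content of 59.2%. The Wnt5b window held 1 GC box, and that of Wnt10b held 0 matches of any kind. The Wnt4 window held 8 GC box matches at a GC content of 85.2%. Of all 32851 windows, 33.8% held CCAAT (10.1% at least 2 matches), 32.7% held GGGCGG, 14% held TGTGGT and 13.8% held CTTTGA. Over the 10 windows of the ligands, TGTGGT was found in 0 and CTTTGA in 2, which were the third start of Wnt5b and the first of Wnt11. These matches describe letters only.

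The genes lie on the same build at chr6:17985474-18032772 (Wnt2), chr4:137277635-137299501 (Wnt4), chr6:119432531-119544824 (Wnt5b), chr15:98770712-98778206 (Wnt10b), chr14:28504543-28527448 (Wnt5a), chr7:98835084-98854747 (Wnt11), chr4:124986401-125009102 (Rspo1), chr15:43020788-43171594 (Rspo2) and chr10:29453106-29535867 (Rspo3). Wnt16, at chr6:22288178-22298522, lies between Cped1 and Fam3c, which are 31770 and 7997 bases away. The Wnt5b window printed above lies inside the span of its gene, and the Wnt16 and Wnt10b windows run into theirs. The spans of these genes thus begin upstream of the transcript starts used for the windows.

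Pi16-Dpt fibroblast-like cells, which carry markers of adventitial fibroblasts, held 95% (young) and 80.7% (old) of all Wnt2 UMIs and 74.0% and 70.9% of all Wnt11 UMIs. Wnt2, a β-catenin ligand best known from lung development, was sparse even there, at 7.00 (young) and 4.62 (old) CPM, with at most 0.427 in any other tested group. It was called higher in these cells (adjusted p = 4.34e-05). The difference from fibrochondrocyte-like cells, which held 1 young and 0 old Wnt2 UMIs, was called at an adjusted p of 0.0279 and lost in DESeq2 (0.118), with a lead of 25% in the marker score (0.0890) and with 9 groups in the fit (0.0600). Wnt11, a ligand that acts mostly outside β-catenin, stood at 23.1 and 32.2. It was called higher than in the mean of the others (adjusted p = 4.77e-05). Fibrochondrocyte-like cells came next with 8.97 and 8.66, and the difference of 1.35 (SE 0.59, adjusted p = 0.157) missed the threshold. Rspo2, at the levels given above, and Wnt10b were also called higher in Pi16-Dpt cells, and Wnt4, at 2.92 and 1.38, was lower by 2.12 (SE 0.38, adjusted p = 0.00119). With cells thinned to 2000 UMIs this lower call for Wnt4 was lost (adjusted p = 1). In all, 5 of the 10 ligands passed the test in this group, beside 27.2% of all genes, and 17.7% of all genes differed between Pi16-Dpt and fibrochondrocyte-like cells.

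Rspo1 was highest, among the tested groups, in tendon-like cells, at 12.9 (young) and 19.8 (old) CPM, and was called higher there than in the mean of the other groups (adjusted p = 0.00255). Fibrochondrocyte-like cells came next with 5.13 and 7.43, and the difference of 1.18 (SE 0.72, adjusted p = 0.420) missed the threshold. Tendon-like cells held 18.8% and 19.9% of all Rspo1 UMIs, and the larger Pi16-Dpt group held 23.7% and 41.3%. With Wnt5a higher and Wnt4 lower (2.20 and 0, by 3.09, SE 0.55, adjusted p = 0.00323), 3 of the 10 ligands passed the test in tendon-like cells, beside 11.6% of all genes. Between tendon-like and fibrochondrocyte-like cells 5.07% of all genes were called. Fibrochondrocyte-like cells had 1 called ligand, Wnt5a, lower by 1.41 (SE 0.22, adjusted p = 0.000949), beside 15.9% of all genes. Pericyte- or smooth-muscle-like cells were nearly free of the 10 ligands. The young cells held 3 UMIs of the 10 genes and the old cells 10, of which Wnt5a made up 1 and 6, and 6 ligands were at 0 in both mice. Wnt5a was lower in them by 2.13 (SE 0.35, adjusted p = 0.000620), the only call in this group, beside 25.5% of all genes. With 9 groups in the fit the lower calls for Wnt5a in fibrochondrocyte-like and in pericyte- or smooth-muscle-like cells were lost (adjusted p = 0.436 and 0.165), and the former also with thinned cells (adjusted p = 1).

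The 2 small groups held high levels of Rspo2 and Rspo3. Joint-lining-like cells, whose markers include lubricin (Prg4), held Rspo2 at 283 (young, interval 249 to 322) and 145 (old, 118 to 177) CPM. With 9 groups in the fit they exceeded Lepr-Adipoq stromal-like cells by a log2 difference of 1.56 (SE 0.26, adjusted p = 0.000520), a comparison in which 33.0% of all genes were called. Chondrocyte-like cells held Rspo3 at 157 (young, 133 to 185) and 94.7 (old, 61.9 to 139, with 10 of 26 UMIs in 1 cell), next to 136 and 168 in Lepr-Adipoq cells, a difference of 0.11 (SE 0.36, adjusted p = 0.870). Chondrocyte-like cells also held Wnt4 at 29.4 and 25.5, on 28 and 7 UMIs, and Wnt5b at 29.4 and 40.1, on 28 and 11 UMIs. Wnt11 stood at 22.0 and 21.9 in chondrocyte-like cells and at 7.15 and 37.1 in joint-lining-like cells. Neither comparison with Pi16-Dpt cells passed the test (differences of -0.06, SE 0.64, adjusted p = 0.969, and -0.50, SE 0.59, adjusted p = 0.666). The fourth R-spondin, Rspo4, which is not 1 of the 10, stood at 74.5 and 32.8 in chondrocyte-like cells and at 2.47 or less in every other mesenchymal group.

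The share of cells with a ligand was compared after each cell was thinned to 2000 UMIs, since old cells were deeper. In Tnn-Ostn cells 63.3% (young) and 48.9% (old) held at least 1 UMI of a WNT among the 7, and 2.43% and 4.22% held an R-spondin. In osteoblast-like cells these shares were 30.1% and 24.6% for WNTs and 2.99% and 3.83% for R-spondins. Lepr-Adipoq stromal-like cells had the opposite mix, with 22.5% and 18.7% for WNTs and 31.3% and 34.9% for R-spondins. In erythroid cells, which should lack both, 1.32% and 0.627% held a WNT and 0.660% and 1.254% an R-spondin, so the R-spondin shares of osteoblast-like and Tnn-Ostn cells were only a few points above background. Before thinning, single ligands reached 61.2% and 52.9% of Tnn-Ostn cells for Wnt5b, 57.6% and 65.1% for Wnt5a, 56.0% and 38.7% for Wnt16, and 46.1% and 56.1% of Lepr-Adipoq cells for Rspo3.

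**Figure D2:**
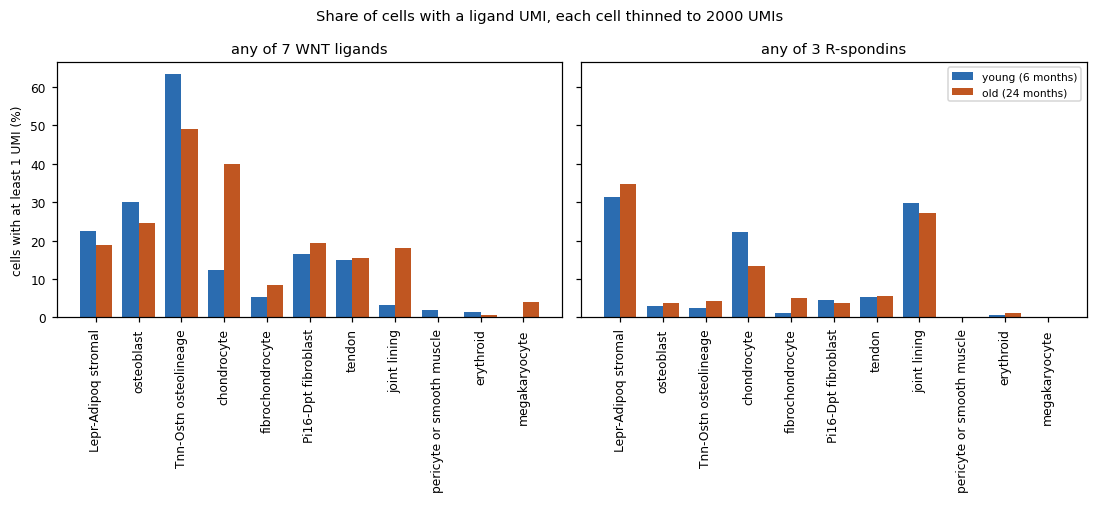
Share of cells (y axis, percent) with at least 1 UMI of the 7 WNT ligands (left) or the 3 R-spondins (right) after thinning each cell to 2000 UMIs, for 9 mesenchymal groups and 2 blood groups of the young (blue) and old mouse (orange). Tnn-Ostn cells reached 63.3% and 48.9% for WNTs but only 2.43% and 4.22% for R-spondins, while Lepr-Adipoq stromal-like cells reached 31.3% and 34.9% for R-spondins.

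Within Tnn-Ostn cells, Wnt16 and Wnt5b were often found in the same cell. Of young cells with a Wnt16 UMI after thinning, 37.9% (interval 30.7 to 45.6) also held Wnt5b, against 21.6% (17.2 to 26.6) of cells without. In the old mouse the shares were 24.3% (11.8 to 41.2) and 14.5% (9.93 to 20.2), whose intervals overlap. In Lepr-Adipoq cells Rspo3 was found in 23.5% of young cells with Wnt4 and in 23.2% of those without, and in 31.1% (25.3 to 37.4) and 24.0% (21.8 to 26.2) of old cells, so the intervals overlapped in the old mouse and the shares nearly coincided in the young mouse. In Pi16-Dpt cells Wnt2 was found in 3.96% (1.09 to 9.83) of young cells with Wnt10b and in 1.05% (0.682 to 1.55) of those without, and in 4.35% (0.531 to 14.8) and 0.574% (0.211 to 1.24) of old cells. These shares come from cells of 1 sample each and are descriptions.

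The levels of the 10 ligands over the 14 sums of mouse and tested group followed the same partition in part. Pearson's r of log2(CPM + 1) was 0.89 for Wnt5a with Wnt5b, 0.83 for Wnt5b with Wnt16, 0.79 for Wnt5a with Wnt16, 0.78 for Rspo2 with Rspo3 and 0.68 for Wnt2 with Wnt11. Wnt10b had an r of 0.79 with Wnt5a, 0.61 with Wnt5b and 0.54 with Wnt16. Wnt4 had an r of 0.61 with Rspo2 and 0.61 with Rspo3. Rspo1 and Wnt16, which were highest in different groups, had an r of 0.57. The sums come from 2 libraries, and no p was computed. The genes most like each ligand, leaving out markers, were named from 13415 genes in the same way. For Wnt16 they were B3galt6 (r = 0.96), a galactosyltransferase of proteoglycan linkers, Fam3c (0.93) and Dap (0.93). Fam3c is the gene next to Wnt16 on chromosome 6. It stood at 522 (young) and 283 (old) CPM in Tnn-Ostn cells, at 311 and 189 in osteoblast-like cells, and at 60.6 or less in Lepr-Adipoq and Pi16-Dpt cells. Cped1, the neighbour on the other side, was looked up after these values were seen and had an r of 0.17.

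For Wnt5a the most alike genes were Arf5 (0.95), the coatomer subunit Copb2 (0.94) and the membrane-bound matrix protease Mmp14 (0.94), and for Wnt5b they were Cmtm4 (0.94), Rab4b (0.94) and Scarf2 (0.94). For Wnt10b they were the heparan sulfate proteoglycan syndecan 2 (Sdc2, 0.96), Tmem26 (0.94) and Sh3pxd2b (0.89). Wnt4 was most like 5430421F17Rik (0.94), Tmem203 (0.94) and the MHC class I gene H2-Q7 (0.94), which may share reads with near-identical genes. Rspo2 was most like Meiob (0.95), Oasl1 (0.95) and Lrg1 (0.94), and Rspo3 like 2900005J15Rik (0.97), Rcbtb2 (0.94) and the interferon receptor subunit Ifnar2 (0.94). Wnt2 was most like the growth cone gene Gap43 (0.98), the angiopoietin receptor Tek (0.98) and Aox3 (0.98), and Wnt11 like AA467197 (0.94), Gm43050 (0.92) and the splicing factor Nova1 (0.90). Rspo1 was most like the proteoglycan gene Epyc (0.95), 3300005D01Rik (0.94) and Jph4 (0.93).

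The other genes of the pathway were read from a list of 56 in 6 roles, of which 41 passed the filter on low counts. Their calls numbered 22 of 41 in Lepr-Adipoq stromal-like cells (15 higher, 7 lower), 24 in osteoblast-like cells (14 and 10), 16 in Tnn-Ostn cells (10 and 6), 18 in Pi16-Dpt cells (10 and 8), 18 in tendon-like cells (16 and 2), 14 in fibrochondrocyte-like cells (14 and 0) and 22 in pericyte- or smooth-muscle-like cells (6 and 16). As shares these were 53.7%, 58.5%, 39.0%, 43.9%, 43.9%, 34.1% and 53.7%, beside the shares of all genes given for each group.

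Of 13 other ligands on the list, 2 could be tested. Wnt9a stood at 26.8 (young) and 20.9 (old) CPM in tendon-like cells and at 18.6 and 21.8 in Pi16-Dpt cells, and it was called higher in both (adjusted p = 0.000715 and 0.000195), as it was in Tnn-Ostn (adjusted p = 0.0117) and fibrochondrocyte-like cells (adjusted p = 0.0248). Wnt6 stood at 4.99 and 3.98 in Lepr-Adipoq cells and was called higher there (adjusted p = 0.0192). Wnt7b, with 14 and 20 UMIs over grouped cells, was not tested. Both genes needed to release WNTs were found in every group. Wls, the WNT carrier, was highest in Tnn-Ostn cells, the group richest in Wnt5a, Wnt5b and Wnt16, at 295 and 331, higher than the mean of the others by 1.00 (adjusted p = 1.48e-05). Porcn, which adds the lipid, was higher in Lepr-Adipoq (32.2 and 26.1, by 1.16, adjusted p = 0.000729) and osteoblast-like cells (29.3 and 17.0, by 1.07, adjusted p = 0.00522), the 2 groups richest in Wnt4.

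Receptors differed between the same groups. Fzd5 was highest in Lepr-Adipoq cells, at 139 (young) and 157 (old), by 2.51 above the mean of the others (adjusted p = 3.65e-09). Fzd1 and Lrp6 were highest in tendon-like cells, at 153 and 149 (by 1.91, adjusted p = 1.51e-05) and at 250 and 214 (by 1.33, adjusted p = 9.95e-06). Ryk was higher in osteoblast-like cells (179 and 209, by 0.75, adjusted p = 6.13e-05) and in Tnn-Ostn cells (164 and 193, by 0.47, adjusted p = 0.00331). Of the 16 receptors and co-receptors, 6 were higher and 3 lower in Tnn-Ostn cells, and 6 higher and 4 lower in Lepr-Adipoq cells.

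The receptors of R-spondins were split by group. Lgr5 stood at 28.0 (young) and 31.9 (old) CPM in Lepr-Adipoq cells, by 3.79 above the mean of the others (adjusted p = 1.84e-06), in the same group as Rspo2 and Rspo3. It stood at 14.7 and 13.2 in tendon-like cells (by 2.69, adjusted p = 0.00260), where Rspo1 was highest. Lgr6 stood at 56.4 and 27.2 in fibrochondrocyte-like cells (by 6.40, adjusted p = 2.65e-06) and at 5.01 and 11.1 in osteoblast-like cells (by 3.47, adjusted p = 0.000425). Lgr4 ranged from 6.27 to 38.4 over the tested groups. It was higher in osteoblast-like cells by 0.98 (adjusted p = 0.000825) and in Lepr-Adipoq cells by 0.44 (adjusted p = 0.0352), and lower in Tnn-Ostn cells, by 0.80 (adjusted p = 0.0171). The ligase gene Znrf3 ranged from 6.35 to 14.2, and its only call was a lower level in Pi16-Dpt cells, by 0.70 (adjusted p = 0.00423).

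Secreted antagonists, which act on WNTs or their receptors outside the cell, were split by group as well. Sfrp4 stood at 1034 (young) and 438 (old) CPM in Lepr-Adipoq cells and at 1106 and 1024 in Pi16-Dpt cells, and at 74.8 and 63.8 in Tnn-Ostn cells, where it was lower by 1.03 (adjusted p = 0.0401). Sfrp1 followed the same order, with 83.4 and 120, 85.9 and 177, and 4.76 and 3.37, lower in Tnn-Ostn cells by 2.40 (adjusted p = 0.00142). Sfrp2 was highest in tendon-like cells, at 981 and 620 (by 4.44, adjusted p = 8.97e-05). Wif1 stood at 514 and 352 in fibrochondrocyte-like cells (by 3.43, adjusted p = 6.17e-06) and at 264 and 431 in osteoblast-like cells (by 3.13, adjusted p = 7.54e-06). Of 10 antagonists tested, 1 was higher and 2 were lower in Tnn-Ostn cells.

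Of the 7 targets and feedback genes tested, 4 were called in osteoblast-like cells, 3 each in Lepr-Adipoq, tendon-like and pericyte- or smooth-muscle-like cells, 2 in Pi16-Dpt cells, and 1 each in Tnn-Ostn and fibrochondrocyte-like cells. Nkd2, an inhibitor induced by the pathway, was higher in tendon-like cells (59.5 and 42.7, by 1.72, adjusted p = 0.000516) and Lepr-Adipoq cells (33.7 and 48.6, by 1.10, adjusted p = 0.000996). Nkd1 and Apcdd1 were highest in pericyte- or smooth-muscle-like cells, a small group with few UMIs of the ligands. Nkd1 stood there at 87.8 and 111 (by 3.99, adjusted p = 5.90e-06) and Apcdd1 at 31.4 and 45.7 (by 2.05, adjusted p = 0.00155). Ccnd1 was higher in osteoblast-like cells, at 154 and 117 (by 2.03, adjusted p = 9.97e-05), and lower in Lepr-Adipoq cells, at 9.49 and 6.30 (by 3.08, adjusted p = 2.28e-05).

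**Figure D3:**
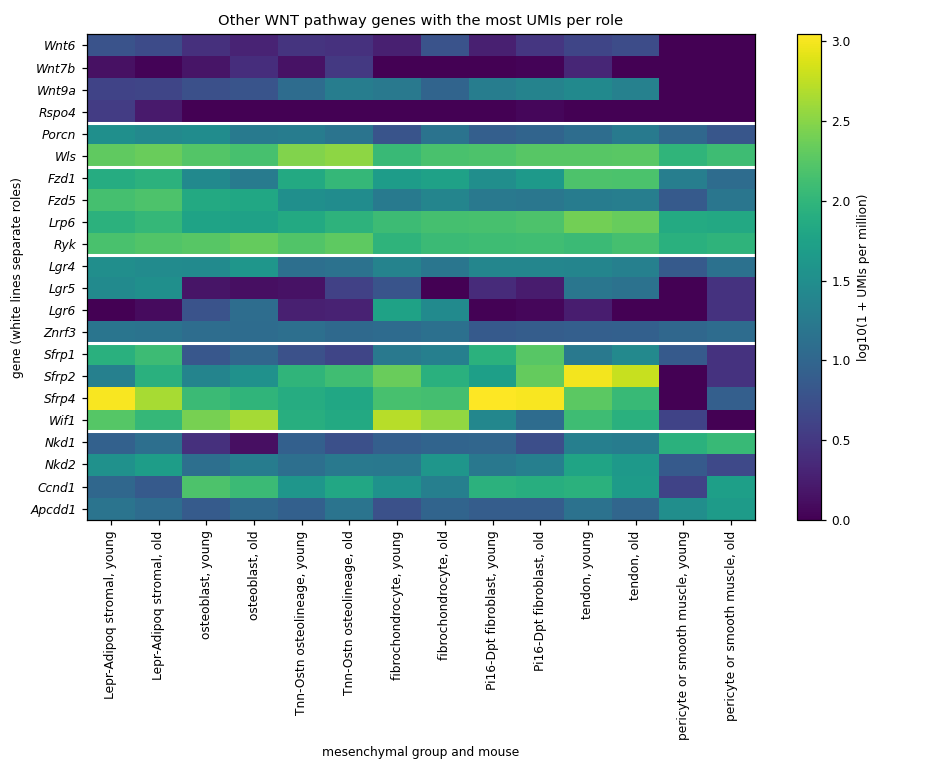
Level of the other pathway genes with the most UMIs in each role (rows, white lines between roles) in the 7 tested groups of each mouse (columns), as log10(1 + CPM) by colour. Wls was brightest in Tnn-Ostn cells (295 and 331), Sfrp4 in Lepr-Adipoq stromal-like and Pi16-Dpt cells (438 to 1106), and Lgr5 in Lepr-Adipoq cells (28.0 and 31.9).

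The next comparison set the old against the young mouse. It has no replicate and no test, and the intervals cover counting error only. Over all grouped mesenchymal cells 0 of the 10 ligands differed by more than 2-fold, while 5.33% of all genes with at least 20 UMIs did. The ratios of old to young ranged from 0.607 (Wnt2, interval 0.454 to 0.804) to 1.65 (Rspo1, 1.30 to 2.10). Rspo3 (1.26, 1.20 to 1.33) and Rspo2 (1.12, 1.05 to 1.20) were above 1, and Wnt4 (0.810, 0.761 to 0.863) and Wnt16 (0.623, 0.571 to 0.680) were below. With cells thinned to 2000 UMIs the ratio of Wnt16 was 0.422. Within groups the ratios of 1 ligand could point in opposite directions.

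Wnt16 was lower in the old mouse in the groups where it was highest. In Tnn-Ostn cells it stood at 237 (young) and 98.9 (old), a ratio of 0.418 (0.373 to 0.468), and in osteoblast-like cells at 52.7 and 21.3, a ratio of 0.403 (0.322 to 0.504). In tendon-like cells it stood at 29.4 and 12.7, a ratio of 0.433 (0.264 to 0.685). There 1 young cell held 30 of 80 UMIs and 1 old cell 10 of 25, and without both the levels were 18.4 and 7.70, a ratio of 0.417 (0.218 to 0.756). Pi16-Dpt cells showed the reverse, with 1.58 and 11.4, a ratio of 7.21 (4.96 to 10.8). The young level was below the background limit, so the ratio is not a fold between 2 levels above it. The reverse was also found in fibrochondrocyte-like cells, with 11.97 and 32.2 (2.69, 1.51 to 4.76). The ratio in Pi16-Dpt cells lay between 3.97 and 7.42 under the other ways of choosing cells. In fibrochondrocyte-like cells it turned to 0.700 with 1 marker more and to 0.776 with 1 marker fewer needed for a group. The ratio stayed below 1 under each of these settings in Tnn-Ostn cells (0.304 to 0.432), osteoblast-like cells (0.242 to 0.439) and tendon-like cells (0.129 to 0.755). The Wnt16 UMIs of Pi16-Dpt cells came from 20 of 2508 young and 51 of 1098 old cells. Of these, 10% (young) and 39.2% (old) also held a UMI of Tnn, against 3.01% and 3.92% of the Pi16-Dpt cells without Wnt16. Postn was held by 40% and 64.7%, against 25.8% and 31.2% without Wnt16, and Aspn by 95% and 98.0%, against 81.8% and 89.6%. Ostn was held by 0 of the cells with Wnt16 in either mouse, and by 0.0804% and 0% of those without. The old cells with Wnt16 were also deeper, with a median of 19961 UMIs against 12187. The part of depth and of Tnn+ cells in this difference was not tested.

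Wnt5b in Tnn-Ostn cells stood at 157 (young) and 75.5 (old), a ratio of 0.482 (0.422 to 0.551), and Wnt10b at 31.9 and 17.3, a ratio of 0.543 (0.405 to 0.723). Wnt5a in the same cells was level, at 124 and 134 (1.08, 0.957 to 1.21). So the intervals of Wnt16, Wnt5b and Wnt10b lay below 1 in these cells and that of Wnt5a included 1. Rspo1 and Rspo3 differed there in opposite directions at low level, with 2.49 and 6.74 for Rspo1 (2.71, 1.33 to 5.85) and 9.11 and 4.09 for Rspo3 (0.449, 0.240 to 0.801). The old Rspo3 level rested on 17 UMIs, 6 of them in 1 cell. Past 2-fold were 4 of 7 ligands with at least 20 UMIs in Tnn-Ostn cells (Wnt16, Wnt5b, Rspo1 and Rspo3), beside 7.28% of all genes.

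In Lepr-Adipoq stromal-like cells Wnt4 stood at 110 and 78.6, a ratio of 0.717 (0.668 to 0.769), while Rspo2 (65.4 and 84.9, 1.30, 1.20 to 1.40) and Rspo3 (136 and 168, 1.24, 1.17 to 1.31) were higher in the old mouse. Past 2-fold was 1 of 8 ligands, beside 4.79% of all genes. It was Wnt16, below the background limit in both mice (1.72 and 0.673). Without predicted doublets it was left with 4 young and 8 old UMIs and a ratio of 2.12. Wnt4 was also lower in osteoblast-like cells (67.8 and 42.4, 0.625, 0.526 to 0.743), where Wnt16 was the 1 of 7 past 2-fold, beside 7.23% of all genes. In Pi16-Dpt cells 3 of 10 ligands were past 2-fold, beside 5.02% of all genes. They were Wnt16, Rspo1 (2.04 and 5.58, 2.74, 1.87 to 4.05) and Wnt4 (2.92 and 1.38, 0.472, 0.270 to 0.791). In each of these 3 the lower of the 2 levels was below the background limit. None of the 3 ratios is therefore a fold between 2 levels above it. The same ligands stood lower in blood cells, at 0.146 (Wnt16, young), 0 (Rspo1, young) and 0.687 (Wnt4, old). Wnt11 in these cells stood at 23.1 and 32.2 (1.39, 1.23 to 1.58), Wnt2 at 7.00 and 4.62 (0.660, 0.487 to 0.885) and Rspo2 at 14.5 and 8.27 (0.572, 0.459 to 0.708). In tendon-like cells 3 of 6 were past 2-fold, beside 4.44% of all genes. They were Wnt16, Rspo3 (20.6 and 7.63, 0.371, 0.195 to 0.665) and Wnt11. For Rspo3 the young level held the cell with 29 of 56 UMIs, and without the richest cell of each mouse the ratio was 0.566 (0.253 to 1.18), no longer past 2-fold, which left 2 of 6. This setting was chosen after the data were seen. Wnt11 had 0 UMIs in the young tendon-like cells, and 3 UMIs, the limit used for a count of 0, would stand at 1.10 CPM. Its old level was 11.2. In fibrochondrocyte-like cells Wnt16 was the 1 of 5, beside 8.60% of all genes.

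**Figure D4:**
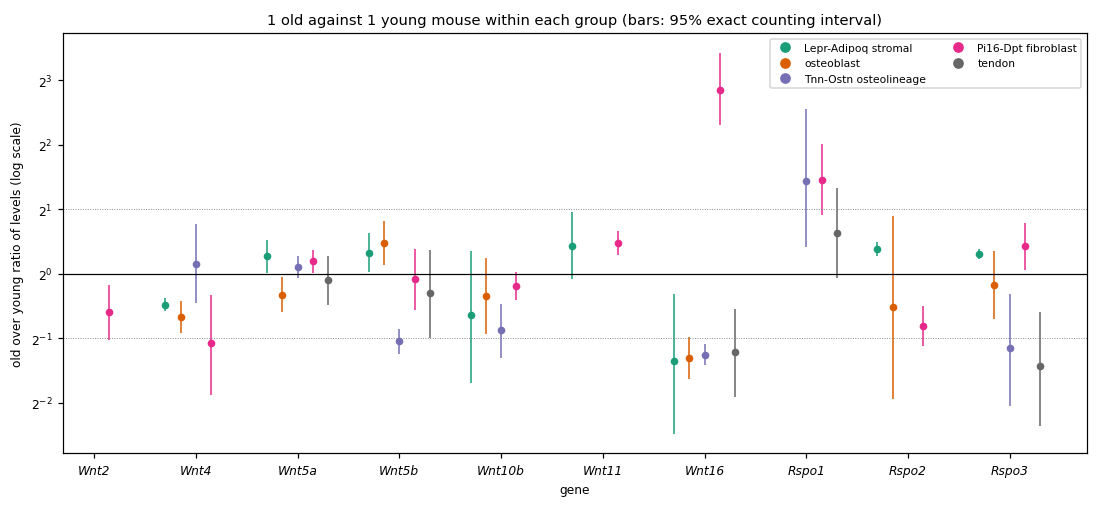
Ratio of the old to the young level (y axis, log scale) of each ligand with at least 20 UMIs and no mouse at 0, in 5 groups (colours), with 95% exact counting intervals, a line at 1 and dotted lines at 2-fold. Wnt16 lay near 0.4 in Lepr-Adipoq stromal-like, osteoblast-like, Tnn-Ostn and tendon-like cells and at 7.21 in Pi16-Dpt cells. Its young level in Pi16-Dpt cells and both its levels in Lepr-Adipoq cells were below the background limit. Rspo1 lay above 1 in each group shown.

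The last comparison asked which ligands CD24+ mesenchymal cells carried. Cells were CD24+ where the antibody count exceeded 312 (young) or 396 (old), which gave 613 and 200 CD24+ and 6810 and 3718 CD24- cells. Wnt16 stood at 77.8 (young) and 34.7 (old) CPM in CD24+ cells and at 20.1 and 15.7 in CD24- cells. The difference was 1.69 on the log2 scale (SE 0.18, adjusted p = 0.00234). Wnt5b stood at 60.1 and 34.1 against 16.5 and 17.4, higher by 1.56 (SE 0.19, adjusted p = 0.00395), and Wnt5a at 54.3 and 55.7 against 29.3 and 34.7, higher by 0.86 (SE 0.09, adjusted p = 0.00259). Rspo2 stood at 22.6 and 19.7 against 33.3 and 37.1, a difference of -0.63 (SE 0.11, adjusted p = 0.0151), which turned to 0.0077 (adjusted p = 0.953) with the threshold set over mesenchymal cells alone. The other 6 ligands missed the threshold, with differences from -1.82 (Wnt2) to 0.57 (Wnt10b). So 4 of 10 ligands were called, beside 13.2% of all genes. With 4 sums and the mouse as a block, 1 residual degree of freedom was left, and without the block only 1 ligand, Wnt5a, was called.

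The CD24+ cells also had another mix of groups. Tnn-Ostn cells made up 25.6% (young) and 22% (old) of CD24+ and 5.04% and 5.22% of CD24- cells, while Lepr-Adipoq cells made up 24.1% and 25.5% against 42.3% and 48.8%. When CD24- cells were weighted to the mix of CD24+ cells, the mean difference over both mice, on the log2(CPM + 1) scale, was 0.14 for Wnt16, 0.21 for Wnt5b, 0.083 for Wnt5a and 0.062 for Rspo2. The weighted CD24- level of Wnt16 was then 70.0 (young) and 31.7 (old), next to 77.8 and 34.7 in CD24+ cells. After weighting, the largest differences were those of Wnt10b, higher by 0.44 (16.4 and 14.0 in CD24+ cells against 12.2 and 9.73), and Wnt2, lower by 0.37 on 7 UMIs in CD24+ cells. The weighted values have no test.

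**Figure D5:**
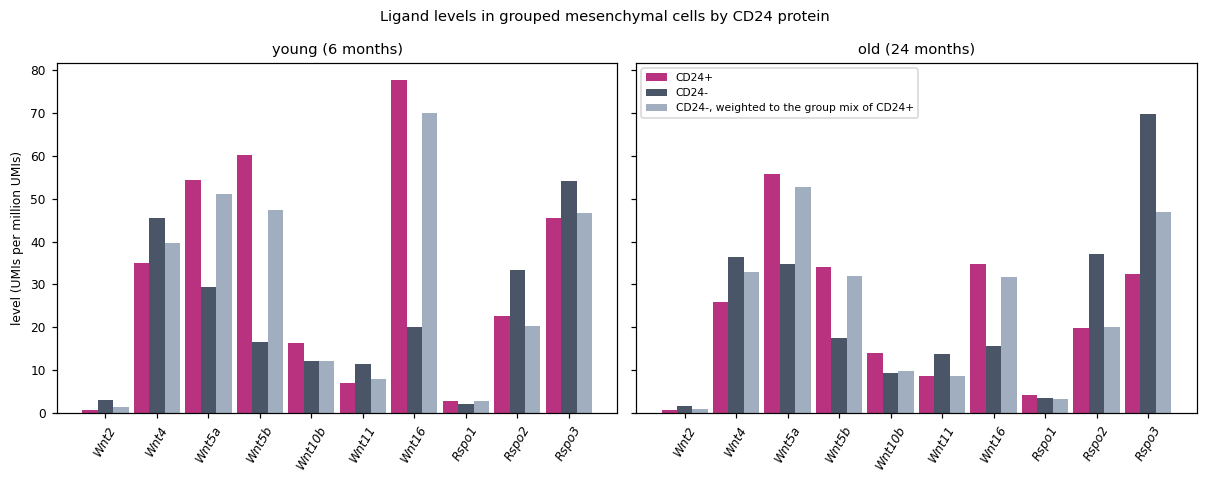
Level of each ligand (y axis, CPM) in CD24+ cells (magenta), CD24- cells (dark grey) and CD24- cells weighted to the group mix of the CD24+ cells (light grey), for the young mouse (left) and the old mouse (right). For Wnt16 the CD24+ bars (77.8 and 34.7) stood far above the CD24- bars (20.1 and 15.7) and close to the weighted ones (70.0 and 31.7).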

How the data were processed

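Live CD45- lineage-depleted cells of 1 young and 1 old mouse were profiled by 10x 3′ CITE-seq, which reads RNA and an antibody tag in the same cell. The authors deposited raw UMI counts per gene (32285) and antibody (1) for each called cell. Cell Ranger made them (6.1.1 per the file headers, another version in the methods) on mm10, per the submitters' processing notes. A UMI count is not divided by gene length, so levels were compared between cells, not between genes.

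Barcodes with at least 200 genes and at most 20% mitochondrial UMIs were kept, 10063 of 11371 (young) and 5607 of 6729 (old), with 81076421 and 66702846 UMIs. A cell joined the highest scoring of 19 marker lists if at least 3 of its markers had at least 2 UMIs. The score was the mean of log2(1 + UMIs per 10000), each marker divided by its 90th percentile. This scoring rule was set after group sizes and values of the ligands had been seen, and the ligands and lists were chosen with earlier results of these data known. The 269 (young) and 57 (old) doublets predicted by Scrublet (scanpy 1.11.5) were kept in the main analysis. CD24+ cells were those above an Otsu threshold (scikit-image 0.26.0) of the log antibody count.

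UMIs were summed per mouse and group (14 sums, 6 residual degrees of freedom) or per mouse and CD24 status (4 sums, 1). They were tested with the quasi-likelihood test of edgeR 4.0.16 (R 4.3.3, TMM, filterByExpr, two-sided, Benjamini-Hochberg over all genes tested), with the mouse as a block, since all sums of a number come from the same animal. Adjusted p-values are from edgeR unless DESeq2 is named. No test was made between ages. The scripts were tested on simulated data. Alternatives were no block, DESeq2 1.42.0, median-of-ratios factors, no filter on low counts, a limit of 10% mitochondrial UMIs, 1 marker more or fewer, cells thinned to 2000 UMIs, predicted doublets removed, another CD24 threshold, a weighted group mix, and each mouse left out. A score lead of 25%, 9 groups in the fit and levels without the richest cell of each mouse were added after seeing the data. All 10 ligands are named, with up to 4 genes of most UMIs per pathway role and the 3 genes of highest Pearson's r per ligand. Intervals came from SciPy 1.17.1 and cover counting error only.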

Additional observations from a re-analysis of the deposited data

Results flagged for a closer look

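Both results below were picked out because a contrast pointed one way in 1 mouse or group and the opposite way in the other, and in neither was the difference itself tested. Wnt10b in Tnn-Ostn cells against Pi16-Dpt fibroblast-like cells differed by 0.456 on the log2 scale in the young mouse and by -0.16 in the old mouse, on 154 and 72 Wnt10b UMIs in Tnn-Ostn cells. The ratio of old to young Wnt16 was 7.21 in Pi16-Dpt cells and 0.418 in Tnn-Ostn cells, with 34 and 165 UMIs in the young and old Pi16-Dpt cells. The young level in Pi16-Dpt cells, 1.58 CPM, was below the background limit of 2.41, the blood level of Wnt5a, and was read as background. Wnt16 itself stood lower in young blood cells, at 0.146 CPM. With cells thinned to 2000 UMIs the ratio in Pi16-Dpt cells was 3.97 (1.55 to 10.9), on 8 and 14 UMIs.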

How the results depend on the processing

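With 1 animal per age, no age difference has an animal replicate, and ligands with few UMIs, such as Wnt2 and Rspo1, had wide counting intervals. The 23 calls of ligands by group numbered 19 to 32 under the 11 alternatives that gave a count. The highest group of a ligand was called over the next for 5 ligands, and for 8 with no filter on low counts. Calls of pathway genes numbered 134, and 87 with cells thinned to 2000 UMIs. CD24 calls numbered 4, and 9 with no filter. Rspo2 changed sign by CD24 status, to 0.0077 with the threshold set over mesenchymal cells and to 0.062 with the weighted group mix. The pooled count of ligands past 2-fold between ages was 0, and 1 in thinned cells. Without the richest cell of each mouse it stayed 0, while in tendon-like cells it was 2 instead of 3. The cause of these changes was not tested. Of the values of single ligands, 559 kept direction and call or moved little, 15 lost and 22 gained a call, 14 untested values moved and 2 changed sign.

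Without the replicate block, calls by group numbered 24 instead of 23, highest over next 5 in both fits, pathway calls 130 instead of 134 and CD24 calls 1 instead of 4. With 1 mouse left out no test was possible, because no residual degrees of freedom were left.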
